A study of Mus musculus with 12 samples.

Results

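Transcripts of 9 genes encoding subunits and inhibitors of protein phosphatase 2A (PP2A) were followed in sorted murine haemopoietic stem and progenitor cells with and without BCR-ABL1 induction. The 9 genes were chosen by symbol, namely the catalytic subunits Ppp2ca and Ppp2cb, the scaffold Ppp2r1a, the regulatory subunits Ppp2r2a, Ppp2r5a, Ppp2r5c and Ppp2r5e, and the inhibitors Set and Anp32a. All 9 were found among the 56748 gene identifiers of the count files and all 9 were among the 18438 genes expressed highly enough to be tested. RNA-seq was performed on 12 libraries of LSK cells (Lin-Sca+Kit+), the bone marrow fraction that holds the stem and earliest progenitor cells. Donor marrow came from SCLtTA/BCR-ABL double transgenic (DTG) mice, in which the stem cell leukaemia (SCL) enhancer drives a tetracycline-repressed activator and hence BCR-ABL1 in stem and progenitor cells. According to the study's methods this marrow was a frozen pool from several transgenic animals. It was given to B6.SJL recipients aged 8 to 12 weeks after 2 irradiation doses of 4.25 Gy. In the CML 2wk group (n = 6) tetracycline had been withdrawn for 2 weeks, so that BCR-ABL1 was induced, and in the CTRL group (n = 6) tetracycline was kept and the oncogene stayed repressed. Both groups carried both transgenes, both were irradiated, and LSK cells of donor origin (CD45.2+) were sorted from the CD45.1 hosts in both.

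PP2A is a major serine/threonine phosphatase built as a trimer. A scaffold (A) subunit holds a catalytic (C) subunit and 1 of many regulatory (B) subunits, and the B subunit decides which substrates are met and where in the cell. PP2A opposes kinase signalling downstream of growth factor receptors and of BCR-ABL1, it is widely regarded as a tumour suppressor, and in chronic myeloid leukaemia the SET protein is known as an inhibitor through which BCR-ABL1 keeps the phosphatase low. Transcript levels do not report phosphatase activity, which also depends on subunit assembly and on methylation and phosphorylation of the catalytic tail.

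The libraries held 22804754 to 41832868 counts in CTRL and 16150817 to 25070105 in CML 2wk. Mitochondrial genes took 0.816 to 1.29% of counts in CTRL and 2.26 to 2.97% in CML 2wk. All CTRL samples were labelled male and all CML 2wk samples female, so the labelled sex and BCR-ABL1 cannot be told apart. The donor pool came from mice of both sexes according to the study's methods, and the label may be that of the recipient rather than of the sorted cells. In the libraries labelled male Xist was high and Ddx3y nearly absent, which does not match that label for the sorted cells. Xist reached 3683 to 4574 CPM (counts scaled to a common library size) in the libraries labelled male and 2152 to 3539 CPM in the others, both before TMM scaling (edgeR's adjustment for library composition), and Ddx3y, a Y-linked gene, had 0 to 24 counts in the libraries labelled male, 202 in CML 2wk replicate 2, 21 in replicate 4 and 0 in the other 4. Among markers of the sort, Kit transcripts were lower in CML 2wk (log2 fold change -0.86, edgeR adjusted p = 4.68e-06), as were Cd34 (-0.44, 0.000347) and Flt3 (-0.73, 0.00111), while Ptprc was higher (0.27, 0.00274) and Ly6a did not pass the test (0.38, 0.066). With trends over GC content and exon length removed, a setting described below, Cd34 was at -0.18 (0.0412), Flt3 at -0.45 (0.019) and Ptprc at 0.48 (7.15e-05). In that setting Kit was at -0.58 (edgeR adjusted p = 6.6e-05), and Ly6a turned to -0.11 and was not called (0.682). CML 2wk replicates 2 and 4 stood apart, with 12 stromal markers summing to 5665 and 865 CPM against 228 to 269 CPM in CTRL and a CML 2wk median of 199 CPM. Of the 8 mast cell and basophil markers 6 were higher in CML 2wk (424 to 2497 CPM summed, against 99.5 to 199 CPM in CTRL), and all 7 erythroid markers were lower (10.9 to 37.4 against 87.0 to 182 CPM). The summed level of 12 G2 and M phase genes was 2164 to 2681 CPM in CML 2wk and 3608 to 4381 CPM in CTRL, a drop carried mainly by Mki67 (1587 to 609 CPM) and Top2a (1228 to 741 CPM). Of these 12 genes 6 were called lower, 3 higher (Ccnb1, Cdk1 and Bub1) and 3 not. These 5 genes were picked after their values were seen. The part of these shifts in the values below was not tested, and in a sorted population a smaller share of cells expressing a gene cannot be told apart from less RNA per cell.

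Promoters are shown for the catalytic member that rose and for 3 members that were lower in CML 2wk with TMM scaling. With GC and length trends removed Ppp2r5a was at a log2 fold change of 0.11 and not called. The promoters are set side by side so that letters upstream of genes called in opposite directions can be compared. Each runs from 250 bases before to 50 bases after the transcript start in RefSeq on GRCm38.p6 and is written 5′ to 3′ on the gene's own strand, with capitals marking a CCAAT box (its own letters), a GC box written GGGCGG, an ETS core written CCGGAAG, a cAMP response element written TGACGTCA, an E-box written CACGTG or an E2F site written TTTGGCGC, on either strand. The promoter of Ppp2ca lies at chr11:52098574-52098873 (plus strand), that of Ppp2r1a at chr17:20945204-20945503 (plus strand), that of Ppp2r5a at chr1:191396992-191397291 (minus strand) and that of Anp32a at chr9:62341093-62341392 (plus strand).
Ppp2ca: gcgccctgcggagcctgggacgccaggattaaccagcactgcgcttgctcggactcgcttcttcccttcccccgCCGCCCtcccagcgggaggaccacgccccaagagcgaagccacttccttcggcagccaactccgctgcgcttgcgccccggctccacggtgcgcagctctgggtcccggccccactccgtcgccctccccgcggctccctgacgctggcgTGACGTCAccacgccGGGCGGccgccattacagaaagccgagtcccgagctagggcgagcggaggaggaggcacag
Ppp2r1a: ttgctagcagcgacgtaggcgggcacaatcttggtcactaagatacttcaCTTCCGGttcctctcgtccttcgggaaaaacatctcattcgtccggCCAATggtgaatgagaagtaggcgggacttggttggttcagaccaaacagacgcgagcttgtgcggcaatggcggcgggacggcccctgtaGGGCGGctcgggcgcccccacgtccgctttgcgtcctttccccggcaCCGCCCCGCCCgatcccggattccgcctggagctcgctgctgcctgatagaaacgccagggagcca
Ppp2r5a: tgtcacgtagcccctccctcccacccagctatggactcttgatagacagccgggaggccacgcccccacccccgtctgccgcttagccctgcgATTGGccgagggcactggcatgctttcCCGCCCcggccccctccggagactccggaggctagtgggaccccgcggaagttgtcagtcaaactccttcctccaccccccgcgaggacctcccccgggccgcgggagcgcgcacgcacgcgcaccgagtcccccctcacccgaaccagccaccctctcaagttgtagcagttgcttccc
Anp32a: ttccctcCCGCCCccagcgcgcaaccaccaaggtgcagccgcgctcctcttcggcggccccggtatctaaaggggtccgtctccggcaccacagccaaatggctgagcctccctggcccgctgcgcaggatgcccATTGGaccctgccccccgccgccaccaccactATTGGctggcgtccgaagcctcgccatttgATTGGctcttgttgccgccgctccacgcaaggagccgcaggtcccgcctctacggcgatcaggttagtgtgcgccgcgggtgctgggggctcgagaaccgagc

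The Ppp2ca window held 1 cAMP response element and 2 GC boxes and no CCAAT box. The Ppp2r1a window held 1 CCAAT box, 1 ETS core and 3 GC boxes, of which the last pair overlap by a base, the Ppp2r5a window held 1 CCAAT box and 1 GC box, and the Anp32a window held 3 CCAAT boxes and 1 GC box. Over the 8 promoters listed for 6 of the members, which count Set and Ppp2r5c more than once, 6 held a CCAAT box, 7 a GC box, 1 a cAMP response element, 1 an ETS core, 1 an E-box and none an E2F site. Among all 32851 RefSeq promoters of this length 37.4% held a CCAAT box, 35.7% a GC box, 1.79% a cAMP response element, 8.86% an ETS core, 7.15% an E-box and 0.514% an E2F site. These matches describe letters only, and binding of a factor was not measured.

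Induction of BCR-ABL1 was accompanied by a split among the PP2A genes. The catalytic subunit Ppp2ca rose, the scaffold Ppp2r1a, the B55 subunit Ppp2r2a, the B56 subunits Ppp2r5a and Ppp2r5e and the inhibitor Anp32a fell, and the catalytic subunit Ppp2cb, the B56 subunit Ppp2r5c and the inhibitor Set did not pass the test. Thus 6 of 9 members passed a threshold of 0.05 (edgeR quasi-likelihood test, p adjusted by Benjamini-Hochberg across the 18438 genes), 1 higher and 5 lower in CML 2wk, and the CPM values of the groups did not overlap for these same 6. The background was high, since 59.5% of all genes tested were called, 30.6% higher and 29.0% lower, and 37.6% had groups without overlap. Among the 3228 genes in the expression range of the members 77.1% were called, 27.5% higher and 49.6% lower. The share of members called therefore lay close to that of other genes, and the median size of their change (0.37 on the log2 scale, direction set aside) was below that of all genes tested (0.49) and of genes in the same range (0.43). With the trends of fold change over GC content and exon length removed, the members called were 2 higher and 4 lower. Ppp2r5a, described below, was no longer among the lower ones.

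**Figure D1:**
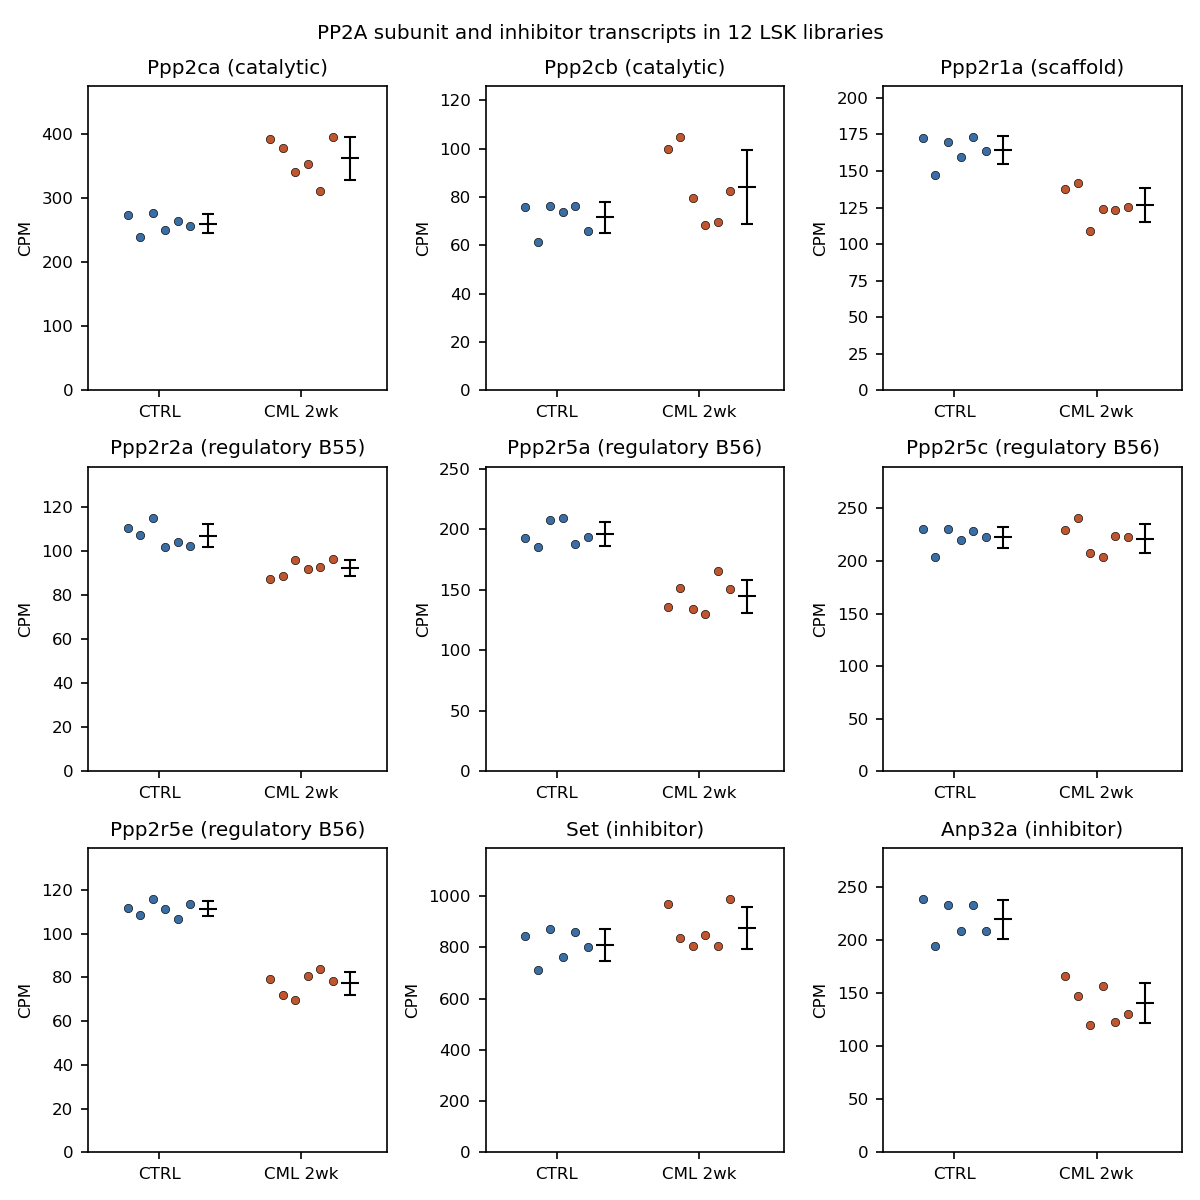
CPM (vertical axis, from 0, scaled separately in each panel) of the 9 PP2A members in CTRL and CML 2wk. Each point is 1 library, in order of replicate number from left to right, and the bar beside the points is the mean with SD (n = 6). All 6 CML 2wk libraries lay above all CTRL libraries for Ppp2ca and below them for Ppp2r1a, Ppp2r2a, Ppp2r5a, Ppp2r5e and Anp32a, whereas the points of Ppp2cb, Ppp2r5c and Set overlapped, and the fold change of Ppp2r5a turned to 0.11 with GC and length trends removed.

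The catalytic subunit is encoded by a pair of genes whose proteins are nearly identical. Ppp2ca, the more abundant by counts, ranged from 240 to 278 CPM (median 261) in CTRL and from 312 to 396 CPM (median 366) in CML 2wk. Every library with BCR-ABL1 lay above every control library, with CML 2wk replicates 6 and 1 highest and replicate 5 nearest to the controls. The mean rose from 261 ± 14.3 to 363 ± 33.0 CPM (SD, n = 6 each), a log2 fold change of 0.48 (SE 0.069, edgeR adjusted p = 3.3e-05). Leaving out single libraries moved this change between 0.44 and 0.51, and it was 0.55 with GC and length trends removed. A transcript annotated on the opposite strand covers 1798 bases of Ppp2ca in the reference annotation, and the strand setting of the counting was not given in the sources used here, so reads from the pair could not be separated.

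Ppp2cb ranged from 61.4 to 76.5 CPM (median 74.7) in CTRL and from 68.5 to 105 CPM (median 81.0) in CML 2wk. CML 2wk replicates 2 and 1 stood above all others while replicates 4 and 5 lay among the controls, so that the groups overlapped. The mean was 71.6 ± 6.41 CPM in CTRL and 84.2 ± 15.2 CPM in CML 2wk, a log2 fold change of 0.23 with a 95% interval from -0.003 to 0.471 (edgeR adjusted p = 0.0706). Without CML 2wk replicate 4 the difference was 0.28 (adjusted p = 0.0301) and without replicate 5 it was also 0.28 (0.0332), while with GC and length trends removed it was 0.03 (0.843).

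Since both genes encode the same enzyme, their balance was compared within each library, where depth and scaling cancel. The ratio of Ppp2cb to Ppp2ca counts was 0.274 ± 0.0160 in CTRL and 0.232 ± 0.0304 in CML 2wk. It was lower in CML 2wk by 0.25 on the log2 scale (two-sided exact permutation test, p = 0.0152, 0.019 after Benjamini-Hochberg adjustment over 5 ratios tested), although CML 2wk replicate 2 at 0.277 lay within the control range of 0.256 to 0.294. With GC and length trends removed the log2 difference was -0.54, without overlap. Ppp2cb thus supplied 21.5 ± 0.98% of catalytic subunit counts in CTRL and 18.8 ± 2.00% in CML 2wk.

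The scaffold gene Ppp2r1a encodes the Aα subunit on which most PP2A trimers are built. It ranged from 147 to 173 CPM (median 166) in CTRL and from 109 to 142 CPM (median 125) in CML 2wk. No value was shared between the groups, with CML 2wk replicate 3 lowest and replicate 2 closest to the controls. The mean fell from 164 ± 9.88 to 127 ± 11.6 CPM, a log2 fold change of -0.37 (SE 0.068, edgeR adjusted p = 0.000274). Ppp2r1a transcripts are rich in G and C (54.8%), and with GC and length trends removed the change was -0.14 (adjusted p = 0.0489). The other scaffold gene, Ppp2r1b, which encodes Aβ, showed 80.2 ± 3.30 CPM in CTRL and 77.5 ± 4.43 CPM in CML 2wk (log2 fold change -0.05, adjusted p = 0.452), and its direction turned under upper-quartile scaling (0.03) and with the trends removed (0.17, adjusted p = 0.00572).

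Ppp2ca and Ppp2r1a thus moved apart. In CTRL the count ratio of Ppp2ca to Ppp2r1a was nearly constant, from 1.53 to 1.64, and in CML 2wk it ran from 2.53 to 3.16. The means were 1.59 ± 0.041 and 2.87 ± 0.248, a 1.80-fold difference without overlap, and with GC and length trends removed the means were 1.68 and 2.71, again without overlap. This ratio was picked after the values were seen and carries no test.

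Regulatory subunits of the B55 family direct PP2A to cell cycle and cytoskeletal substrates. Ppp2r2a, which encodes B55α, ranged from 102 to 115 CPM (median 106) in CTRL and from 87.6 to 96.5 CPM (median 92.4) in CML 2wk. The groups were separate, with little spread within either. The mean fell from 107 ± 5.20 to 92.3 ± 3.66 CPM, the smallest change among the members called (log2 fold change -0.21, SE 0.051, edgeR adjusted p = 0.00211), and it was -0.35 with GC and length trends removed. A pseudogene, Gm19221, matches Ppp2r2a at 94.0% identity over 1479 bases, so some reads may be split between them. Its counts equalled 3.45 to 5.2% of those of Ppp2r2a in CTRL and 2.94 to 8.73% in CML 2wk. The B55δ gene Ppp2r2d moved the other way, from 40.9 ± 1.37 to 54.9 ± 2.48 CPM (log2 fold change 0.42, adjusted p = 7.12e-06), and B55β and B55γ (Ppp2r2b and Ppp2r2c) averaged under 0.1 CPM in both groups and were not tested.

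Subunits of the B56 family counter growth factor and MYC signalling and act at kinetochores in mitosis. Ppp2r5a (B56α), known for dephosphorylation of MYC, ranged from 185 to 210 CPM (median 193) in CTRL and from 130 to 166 CPM (median 143) in CML 2wk. Each BCR-ABL1 library lay below each control, with CML 2wk replicate 5 nearest to them. The mean fell from 196 ± 10.3 to 145 ± 13.6 CPM (log2 fold change -0.44, SE 0.067, edgeR adjusted p = 5.53e-05). This call did not survive removal of GC and length trends, where the change was 0.11 in the other direction (adjusted p = 0.181). With 9607 bases of annotated exon and 53.5% GC, Ppp2r5a was the longest member by that measure and among those richest in G and C. Its longest coding transcript, from which the GC content was taken, held 3088 bases. The removal of trends used the exon length of 9607 bases, and whether the sign would turn with the shorter length was not tested.

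Ppp2r5e (B56ε) ranged from 107 to 116 CPM (median 112) in CTRL and from 69.6 to 83.8 CPM (median 78.8) in CML 2wk. The distance between the groups exceeded the whole range of either. The mean fell from 111 ± 3.32 to 77.3 ± 5.42 CPM, a log2 fold change of -0.53 (SE 0.055) with the lowest adjusted p among the members (edgeR, 1.66e-06). The change was -0.55 with GC and length trends removed and between -0.55 and -0.50 when single libraries were left out.

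Ppp2r5c (B56γ), the most abundant of the 3 B56 members by counts, ranged from 204 to 230 CPM (median 226) in CTRL and from 204 to 241 CPM (median 223) in CML 2wk. The ranges nearly coincided, with CML 2wk replicate 2 highest and replicate 4 level with the lowest control. The means were 223 ± 10.1 and 221 ± 14.0 CPM, a log2 fold change of -0.01 with a 95% interval from -0.14 to 0.12 (edgeR adjusted p = 0.905). The sign of so small a value was not stable, being 0.07 under upper-quartile scaling (adjusted p = 0.26) and 0.15 with GC and length trends removed, where the gene was called higher (adjusted p = 0.0192). That removal used an exon length of 8286 bases, whereas the longest coding transcript held 4108, and the shorter length was not tested.

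Of the remaining B56 genes, Ppp2r5d (B56δ) fell from 66.8 ± 4.24 to 45.1 ± 5.82 CPM (log2 fold change -0.56, edgeR adjusted p = 4.43e-05), and Ppp2r5b (B56β), expressed at 7.07 ± 0.34 CPM in CTRL, was lower at 4.61 ± 1.74 CPM with overlapping groups (-0.62, adjusted p = 0.0148). With GC and length trends removed these were -0.33 (adjusted p = 0.00212) and -0.21 (0.365). Hence 4 of the 5 B56 genes were called lower and 1 was not called, and without the trends 2 were called lower, 1 higher and 2 not called. Among all genes tested 29.0% were called lower with TMM scaling, and 49.6% in the expression range of the members. The B56 genes were not tested as a set.

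The composition of the B56 class changed accordingly. Of the counts of Ppp2r5a, Ppp2r5c and Ppp2r5e together, Ppp2r5c supplied 40.7 to 43.7% in CTRL and 47.4 to 51.9% in CML 2wk, without overlap. The share of Ppp2r5e was 21.0 ± 0.53% and 17.5 ± 1.31%, and the ratio of Ppp2r5e to Ppp2r5c was 0.468 to 0.532 in CTRL and 0.298 to 0.397 in CML 2wk (no overlap, no test, chosen after its values were seen). The share of Ppp2r5a was 37.0 ± 1.07% in CTRL and 32.6 ± 1.55% in CML 2wk, a log2 difference of -0.18 (exact permutation, p = 0.00216, which is the lowest value 6 and 6 libraries can give, 0.0036 adjusted over 5 ratios), and it turned to 0.11 with GC and length trends removed (exact permutation p = 0.0108). The ratio of Ppp2r2a to the 3 B56 members was 0.202 ± 0.0102 in CTRL and 0.209 ± 0.0168 in CML 2wk (log2 difference 0.05, exact permutation p = 0.424), and with the trends removed it was lower in CML 2wk by 0.35 on the log2 scale (exact permutation p = 0.00216). Whether B55α changed relative to B56 therefore depended on this correction.

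**Figure D2:**
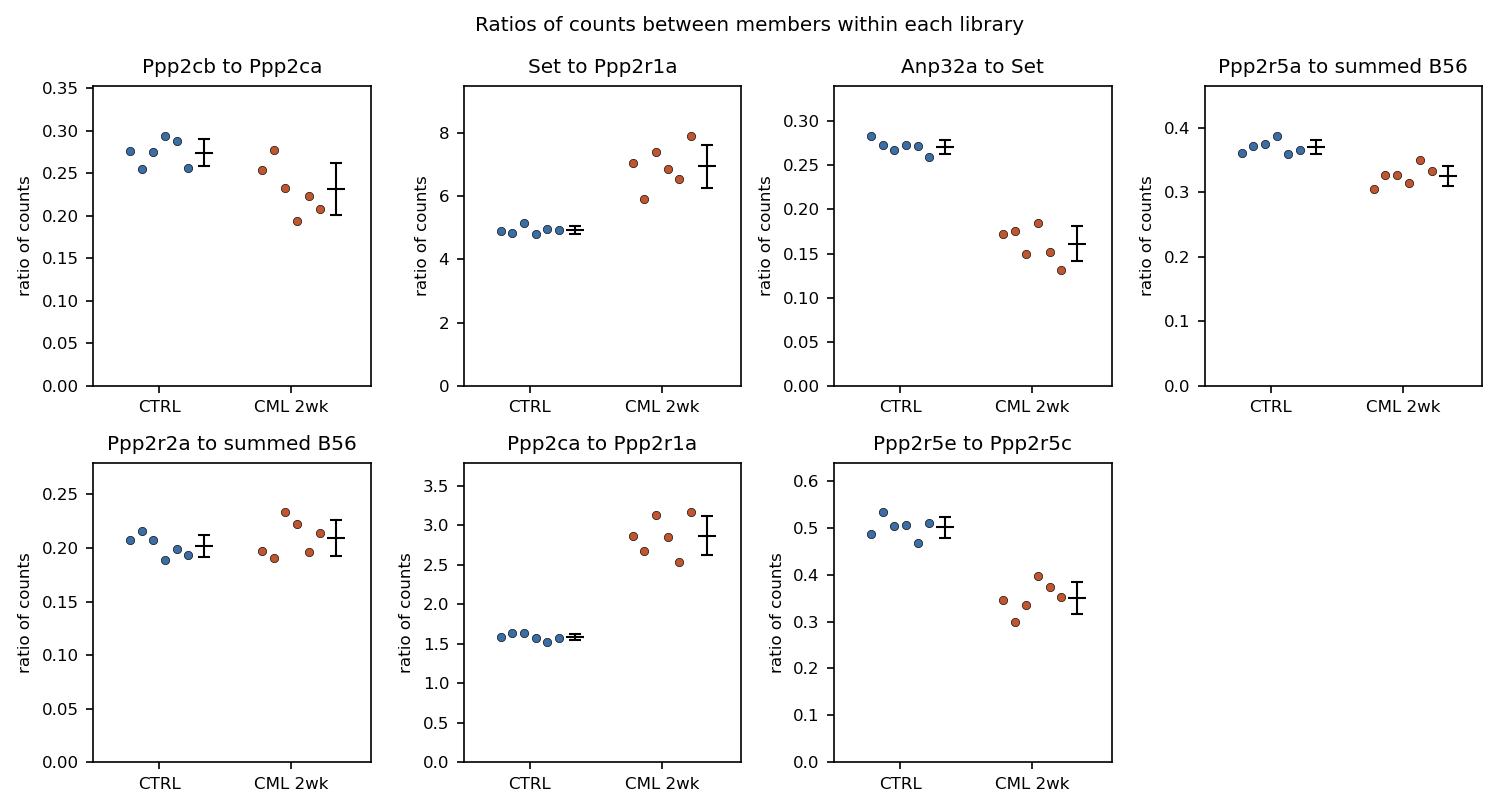
Count ratios between PP2A members within each library (vertical axis, unitless, from 0), with points in order of replicate number and the mean with SD (n = 6) beside them. The ratio of Ppp2ca to Ppp2r1a lay at 1.53 to 1.64 in CTRL and at 2.53 to 3.16 in CML 2wk, and that of Anp32a to Set at 0.259 to 0.283 and 0.132 to 0.185. Ratios of Ppp2cb to Ppp2ca and of Ppp2r2a to summed B56 (Ppp2r5a, Ppp2r5c and Ppp2r5e) overlapped, and with GC and length trends removed the difference of Ppp2r5a to summed B56 reversed.

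SET and ANP32A (also known as PHAPI) are acidic nuclear proteins that bind PP2A and inhibit it, and both also act on histones. Set was by far the most abundant member, from 712 to 871 CPM (median 823) in CTRL and from 805 to 990 CPM (median 842) in CML 2wk. CML 2wk replicates 6 and 1 exceeded all controls while the other 4 lay within the control range. The means were 809 ± 61.7 and 876 ± 82.6 CPM, a log2 fold change of 0.11 with a 95% interval from -0.05 to 0.28 (edgeR adjusted p = 0.206). Under upper-quartile scaling it was called higher (0.19, adjusted p = 0.0217), and with GC and length trends removed the change was 0.01 (0.88). In the reference 12 genes, 11 of them pseudogenes, have transcripts similar to Set, and their counts came to 0.43 to 0.913% of those of Set.

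Anp32a ranged from 195 to 239 CPM (median 221) in CTRL and from 120 to 167 CPM (median 139) in CML 2wk. The groups were separate, with CML 2wk replicates 1 and 4 closest to the controls and replicates 3 and 5 lowest. The mean fell from 219 ± 18.0 to 141 ± 19.1 CPM, the largest change among the members (log2 fold change -0.64, SE 0.088, edgeR adjusted p = 2.1e-05), and it was -0.79 with GC and length trends removed.

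The inhibitors therefore changed unequally. The count ratio of Anp32a to Set was 0.271 ± 0.0079 in CTRL and 0.161 ± 0.0199 in CML 2wk, a log2 difference of -0.76 (two-sided exact permutation test, p = 0.00216, 0.0036 adjusted over 5 ratios), and -0.80 with GC and length trends removed. Set relative to the scaffold Ppp2r1a rose from 4.92 ± 0.122 to 6.93 ± 0.689 counts per count (log2 difference 0.49, exact permutation p = 0.00216, 0.0036 adjusted), with all CML 2wk values (5.91 to 7.89) above all CTRL values (4.79 to 5.14). That difference shrank to 0.15 with GC and length trends removed (exact permutation p = 0.00433) and the groups then overlapped.

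The dependence on GC content and length followed a trend of the whole comparison. When genes were ordered by GC content and cut into 5 equal bins, the median log2 fold change ran from 0.31 in the bin with least GC to -0.37 in that with most, and over 5 bins of exon length from 0.39 among the shortest genes to -0.28 among the longest. Values were at hand for 96.6% of genes tested and for all 9 members. With both trends removed, a setting added after the data were seen, Ppp2ca, Ppp2r2a, Ppp2r5e and Anp32a kept their direction and call with changes at least as large as before, Ppp2r1a kept its call with a smaller change, and Ppp2r5a and Ppp2r5c changed sign. Whether the trends come from library preparation or from the cells was not tested.

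**Figure D3:**
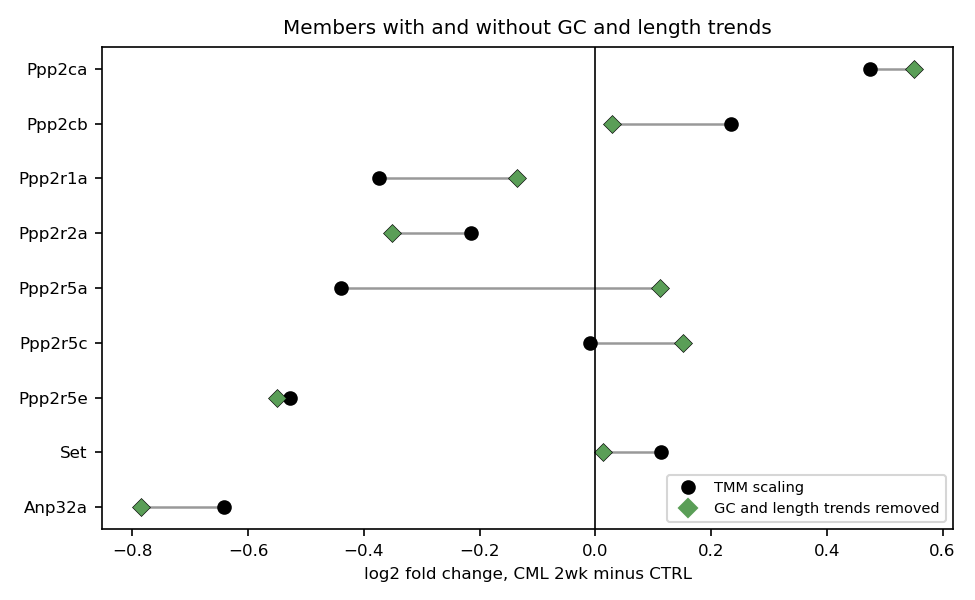
Log2 fold change of each member (horizontal axis, CML 2wk minus CTRL) with the reported TMM scaling (black circles) and with trends over GC content and exon length removed (green diamonds). Ppp2r5a moved from -0.44 to 0.11 and Ppp2r5c from -0.01 to 0.15 across the zero line, Ppp2r1a moved from -0.37 to -0.14, and Ppp2r5e (-0.53 and -0.55) stayed nearly in place.

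Levels were compared between genes as CPM per kb of annotated exon. In CTRL the order was Set (199 ± 15.1 CPM per kb), Anp32a (69.3 ± 5.68), Ppp2cb (48.7 ± 4.37), Ppp2r1a (48.2 ± 2.90), Ppp2ca (34.8 ± 1.91), Ppp2r5c (26.9 ± 1.21), Ppp2r5e (20.9 ± 0.62), Ppp2r5a (20.4 ± 1.07) and Ppp2r2a (19.9 ± 0.97). The ranges of Ppp2cb and Ppp2r1a overlapped, as did those of Ppp2r5e, Ppp2r5a and Ppp2r2a. Within libraries Ppp2cb lay above Ppp2r1a in 4 of 6, Ppp2r5e above Ppp2r5a in 5 and Ppp2r5a above Ppp2r2a in 4. In CML 2wk the order was Set (215 ± 20.3), Ppp2cb (57.3 ± 10.4), Ppp2ca (48.4 ± 4.41), Anp32a (44.4 ± 6.03), Ppp2r1a (37.2 ± 3.41), Ppp2r5c (26.7 ± 1.69), Ppp2r2a (17.1 ± 0.68), Ppp2r5a (15.1 ± 1.42) and Ppp2r5e (14.5 ± 1.01). The ranges of Ppp2cb, Ppp2ca, Anp32a and Ppp2r1a each overlapped the next, as did those of Ppp2r2a, Ppp2r5a and Ppp2r5e. Within libraries Anp32a lay above Ppp2r1a, and Ppp2r2a above Ppp2r5a, in all 6. Ppp2cb lay above Ppp2ca in 5, Ppp2ca above Anp32a in 4 and Ppp2r5a above Ppp2r5e in 4. Set stood above all members in every library of both groups. Anp32a passed from place 2 to place 4 and Ppp2ca from place 5 to place 3. Whole-gene exon length was used, and for Ppp2cb (1469 bases) and Ppp2ca (7490 bases) the order per kb is the reverse of that by counts. For some other members it far exceeded the longest coding transcript. The lengths were 9607 and 3088 bases for Ppp2r5a, 8286 and 4108 for Ppp2r5c and 3166 and 2113 for Anp32a. Places and class sums thus depend on the length chosen, and transcript length was not tried.

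Summed by class on the same scale, catalytic transcripts (Ppp2ca and Ppp2cb) amounted to 83.6 ± 6.01 CPM per kb in CTRL and 106 ± 13.8 in CML 2wk, the groups meeting at 89.2. Scaffold transcripts (Ppp2r1a and Ppp2r1b) were 60.6 ± 3.07 and 49.2 ± 3.83, without overlap. The 5 B56 genes together were at 89.9 ± 3.42 and 70.9 ± 4.38, also without overlap, whereas the B55 pair Ppp2r2a and Ppp2r2d stood at 26.8 ± 0.96 and 26.4 ± 0.88. With GC and length trends removed the class means were 86.2 and 103 for the catalytic genes, 55.8 and 53.3 for the scaffold, 83.1 and 76.8 for B56 and 27.4 and 26.2 for B55, and the groups overlapped in each of these classes.

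**Figure D4:**
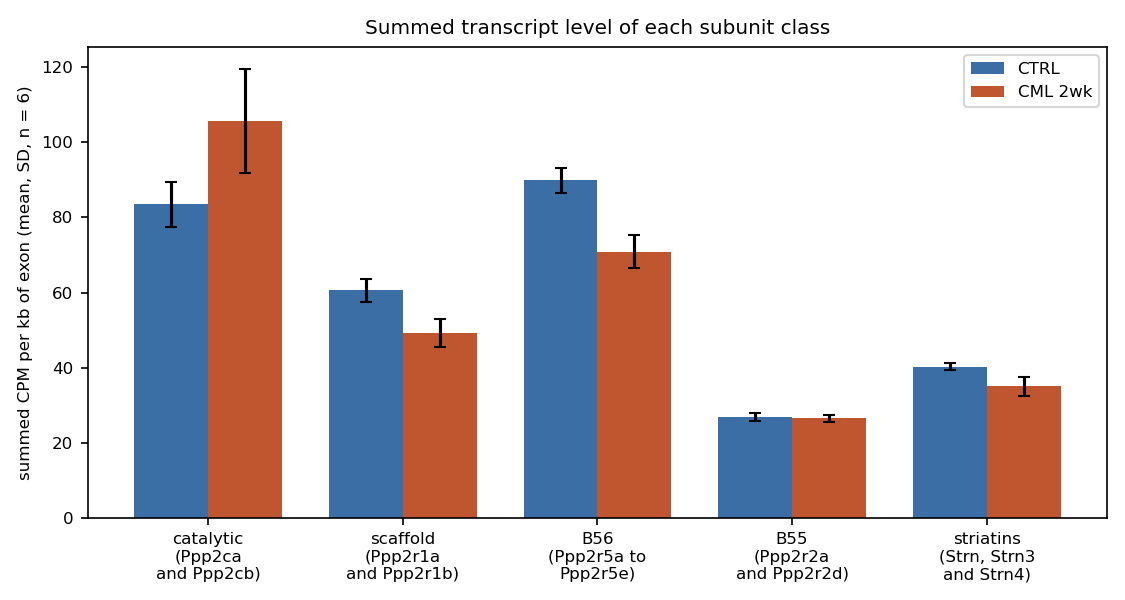
Summed CPM per kb of exon (bars from 0, mean with SD, n = 6) for each class of PP2A subunit genes in CTRL and CML 2wk. Catalytic transcripts were 83.6 and 106, scaffold 60.6 and 49.2, B56 89.9 and 70.9, B55 26.8 and 26.4 and striatins 40.2 and 35.0, and with GC and length trends removed the groups overlapped in every class and the order of the striatin means turned (36.3 and 38.5).

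Other genes of the phosphatase were described from lists. The counts of calls given from here on stand beside 30.6% higher and 29.0% lower among all genes tested. No list was tested as a set. Of 12 further subunit genes 10 were tested, of which 3 were called higher, 5 lower and 2 not (median log2 fold change -0.31, against -0.21 for the members and 0.07 for all genes tested). Ppp2r3c, a B″ subunit, rose from 43.3 ± 1.21 to 69.0 ± 7.70 CPM (0.67, edgeR adjusted p = 1.53e-06), and Strn3, a striatin of the B‴ class, from 93.5 ± 2.22 to 114 ± 7.85 CPM (0.29, 0.000297). Ppp2r3d, another B″ gene, fell from 41.5 ± 2.85 to 22.9 ± 4.66 CPM (-0.85, 1.63e-05). Strn4 was lower with TMM scaling (-0.61, 5.11e-07) and at 0.10 with GC and length trends removed, where it was not called (0.0871).

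Enzymes that assemble PP2A or modify the catalytic tail moved in both directions, with 3 of 5 called higher and 2 lower. Igbp1 (α4), which holds free catalytic subunit, rose by a log2 fold change of 0.51 (67.0 ± 5.58 to 95.8 ± 12.7 CPM, edgeR adjusted p = 0.000136), and Tiprl, another protein that binds free catalytic subunits, by 0.37 (0.00033). Lcmt1, the methyltransferase of the catalytic carboxyl terminus, rose by 0.34 (21.3 ± 1.40 to 27.1 ± 4.28 CPM, 0.00716). Ppme1, the opposing methylesterase, fell from 40.5 ± 2.44 to 27.6 ± 4.25 CPM (-0.55, 0.000145). Those 4 kept direction and call with GC and length trends removed, whereas Ptpa, the PP2A activator, was at -0.19 (0.0104) and turned to 0.34 (0.00105).

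**Figure D5:**
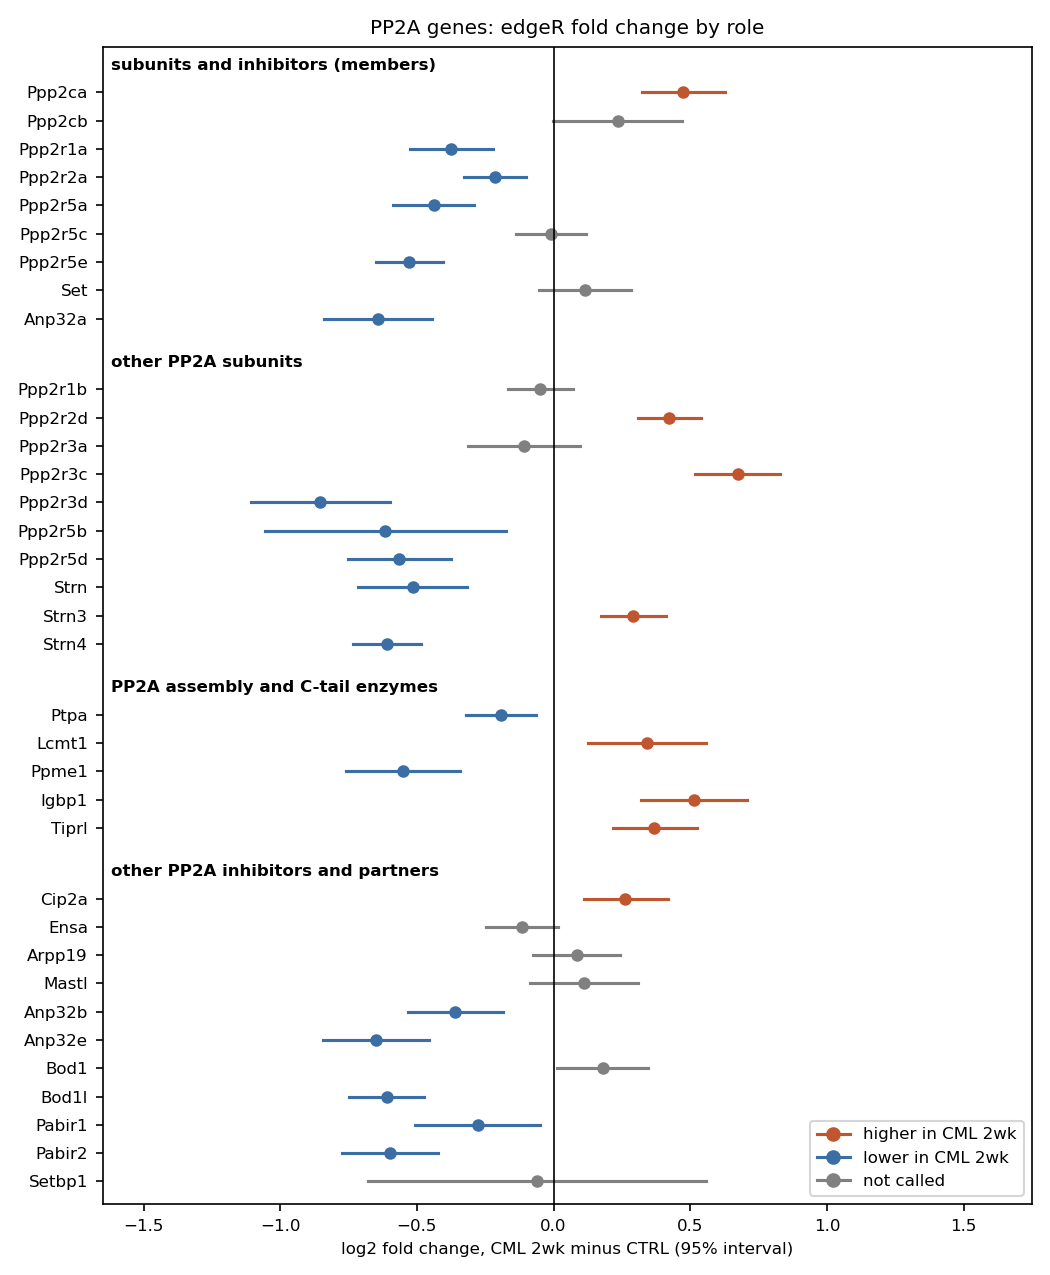
Log2 fold change (horizontal axis, CML 2wk minus CTRL) with 95% interval for the 9 members, 10 other tested subunit genes, 5 assembly and tail enzymes and 11 other inhibitors and partners, coloured by the edgeR call at an adjusted p of 0.05. Values ran from -0.85 (Ppp2r3d) to 0.67 (Ppp2r3c), and Ppp2r5a, Ppp2r5c, Ppp2r1b, Strn4, Ptpa, Cip2a, Arpp19, Mastl and Setbp1 changed sign with GC and length trends removed.

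Of 11 further inhibitors and partners 1 was called higher, 5 lower and 5 not. The relatives of Anp32a fell with it, Anp32e from 303 ± 24.1 to 193 ± 24.4 CPM (log2 fold change -0.65, edgeR adjusted p = 1.62e-05) and Anp32b from 408 ± 34.5 to 318 ± 31.3 CPM (-0.36, 0.0011), and both were lower still without GC and length trends (-0.88 and -0.59). Bod1l (-0.61, 1.18e-06, and -0.38 without the trends) and Pabir2 (-0.60, 1.34e-05) were also lower. Cip2a, which encodes an inhibitor that stabilises MYC, was higher at 118 ± 11.2 against 98.1 ± 5.43 CPM (0.26, 0.00421), a call that was lost with the trends removed (-0.03, 0.614). Setbp1, whose product binds SET, was near the floor of detection at 1.51 ± 0.22 and 1.45 ± 0.66 CPM and did not pass the test (-0.06, 0.865). Nor did the mitotic inhibitors Ensa (-0.11, 0.108) and Arpp19 (0.08, 0.326) or their kinase Mastl (0.11, 0.298), of which Arpp19 and Mastl turned negative without the trends (-0.16 and -0.06).

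Partners of the striatin complexes (STRIPAK) were called higher in 5 and lower in 5 of 11 cases. Pdcd10, which anchors kinases in the complex, rose from 47.0 ± 3.50 to 105 ± 13.4 CPM (log2 fold change 1.15, edgeR adjusted p = 7.41e-08), and Mob4 by 0.57 (2.98e-06), and with GC and length trends removed these were 0.55 (5.42e-05) and 0.22 (0.00837). Of 7 genes that guide PP2A in mitosis 2 were higher, 2 lower and 3 not called. The 3 not called, Mastl, Arpp19 and Ensa, and the higher Ppp2r2d also belonged to lists described above. Bub1b, whose product recruits B56 to kinetochores, fell from 186 ± 15.0 to 105 ± 15.2 CPM (-0.83, 2.94e-06), in libraries where 6 of the 12 G2 and M phase genes were called lower and 3 higher, and Sgo2a was lower (-0.30, 0.0203). Sgo1, a protector of cohesion that binds B56, was higher (0.27, 0.00482) but at -0.05 with the trends removed.

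The related phosphatases served for comparison. Of 12 genes of PP4 and PP6 complexes 2 were higher, 6 lower and 4 not called, among the lower ones Ppp6r1 (-0.92, edgeR adjusted p = 1.69e-07) and Ppp6r2 (-0.85, 6.7e-07). Without the trends these were -0.40 (8.16e-05) and -0.27 (0.00539), and 4 genes were called higher and 3 lower. Of 8 genes of the PP1 core 4 were higher and 2 lower, led by Ppp1r8 (0.56, 5.34e-05) and the catalytic Ppp1cb (0.55, 6.39e-05), and without the trends none was called lower. Of 10 genes on the path from BCR-ABL1 to PP2A none was called higher and 6 were lower, including Stat5b (-0.89, 1.63e-07), Stat5a (-0.77, 3.88e-07) and Jak2 (-0.76, 4.53e-06), which without the trends were at -0.56 (3.59e-06), -0.20 (0.00989) and -0.85 (3.01e-06). Hnrnpa1, whose product binds SET transcripts, fell from 897 ± 69.2 to 656 ± 55.6 CPM (-0.45, 8.97e-05, and -0.69 without the trends), chosen here after its values were seen.

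For each member the 2 genes with the most similar pattern over the 12 libraries were sought among 10159 genes, by the root mean square difference of log2 CPM after each gene was centred. For Ppp2ca these were Pdhb and Rexo2 (0.043 and 0.044, against a spread of Ppp2ca about its own mean of 0.257), for Ppp2r1a Man1b1 and Mapre1 (0.038 and 0.039), for Ppp2r5e Gabpb2 and Zfp282 (0.051 and 0.052) and for Anp32a Nudc and Ik (0.065 and 0.068). Ppp2r5c was nearest to Pdzd8 and Cdc27 (0.032 and 0.039), Set to Me2 and Ap1s1 (both 0.041), Ppp2r2a to Susd6 and D10Jhu81e (0.051 and 0.058), Ppp2r5a to Gnb2 and Larp4b (0.066 and 0.076) and Ppp2cb to Ldlrad3 and Sec63 (0.076 and 0.078). No member was among the nearest genes of another.

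Replicates 1 to 5 of each group carried consecutive library identifiers and replicate 6 of both groups did not. Between the replicate 6 libraries alone, with no test possible for 1 against 1, the log2 differences of the 6 called members had the sign of the whole comparison, at 0.63 for Ppp2ca, -0.38 for Ppp2r1a, -0.08 for Ppp2r2a (against -0.21 overall), -0.36 for Ppp2r5a, -0.53 for Ppp2r5e and -0.67 for Anp32a. The others were 0.32 for Ppp2cb, 0.30 for Set and -0.002 for Ppp2r5c. With CML 2wk replicates 2 and 4 both left out, a setting added after the data were seen, 1 member was called higher and 5 lower, with log2 fold changes of 0.46 for Ppp2ca, -0.42 for Ppp2r1a, -0.21 for Ppp2r2a, -0.43 for Ppp2r5a, -0.53 for Ppp2r5e and -0.71 for Anp32a.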

How the data were processed

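RNA from 12 LSK samples (the labels do not say whether each is 1 recipient) was prepared with the Kapa RNA HyperPrep kit and sequenced in paired ends. The authors deposited raw read counts per gene for each library. Per the submitters' processing notes, FastQC 0.11.9, fastp 0.23.2, STAR 2.7.10a, featureCounts 2.0.1, DESeq2 1.36.0 and the build GRCm39 (mm39) were used, whereas the study's methods name Trim Galore!, HISAT2 and a human build, so the aligner is uncertain. The annotation release, strand setting and handling of multi-mapped reads were not given in the sources used here.

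From these counts, genes passing filterByExpr (18438) were scaled by TMM and tested with edgeR 4.0.16 (R 4.3.3), quasi-likelihood, 6 against 6 libraries, no covariate, p adjusted by Benjamini-Hochberg across these genes, threshold 0.05. Labelled sex is identical with the group and could not be a covariate. CPM are counts per TMM-scaled library size, and SD is between libraries, so p-values measure the spread between these samples, which may be partly technical. Count ratios (0.5 added) were compared by exact permutation with scipy 1.17.1. The members and lists were chosen with earlier results of these data known. The text names all members, the sort markers, up to 3 called genes per direction of each list, a set of listed PP2A regulators, and the 2 nearest patterns of each member. Symbols matched 52073 of 56748 identifiers. Names, lengths and GC content came from GENCODE M21 (GRCm38), hence no gene coordinates are given, and similar transcripts were found with blastn 2.17.0 (at least 90% identity over 200 bases). Promoters of 6 members came from RefSeq (GRCm38.p6). The scripts were tested on simulated data. Alternatives were RLE and upper-quartile scaling, other filters on low counts, DESeq2 1.42.0, a replicate block, replicates 1 to 5 only, each library left out and, added after the data were seen, CML 2wk replicates 2 and 4 both left out and local regression of each library on GC content and log2 exon length, removed as offsets.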

Additional observations from a re-analysis of the deposited data

How the results depend on the processing

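Most values kept their direction and their side of the threshold under 21 alternatives. Ppp2ca, Ppp2r1a, Ppp2r2a, Ppp2r5e and Anp32a did so under all 21, with log2 fold changes of 0.40 to 0.55, -0.45 to -0.14, -0.35 to -0.14, -0.60 to -0.45 and -0.79 to -0.57. With GC and length trends removed Ppp2r5a turned to 0.11 (adjusted p = 0.181) and Ppp2r5c to 0.15 (0.0192), 2 members were called higher, and counts of called genes were 3 lower for other subunits, 1 lower for assembly and tail enzymes, 0 higher for other inhibitors, 3 lower for STRIPAK, 1 higher for mitotic guides, 4 higher and 3 lower for PP4 and PP6 and 0 lower for PP1. The log2 ratio differences of Ppp2r5a and of Ppp2r2a to summed B56 turned to 0.11 and -0.35. Upper-quartile scaling gave 0.31 for Ppp2cb (adjusted p = 0.0128), 0.066 for Ppp2r5c (0.26) and 0.19 for Set (0.0217), hence 3 members called higher, with 1 assembly enzyme lower, 3 other inhibitors higher and 1 mitotic guide lower. With no filter on low counts 0 other inhibitors, 1 mitotic guide and 0 PP4 and PP6 genes were called higher. With CML 2wk replicates 2 and 4 both left out 2 other inhibitors were called higher and 1 mitotic guide lower. The cause of these moves was not tested.

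Leaving out each library in turn gave 0.15 to 0.28 for Ppp2cb and -0.044 to 0.012 for Ppp2r5c (0.008 without CML 2wk replicate 3 and 0.012 without replicate 4), with 1 to 2 members called higher, 1 to 2 other inhibitors higher (2 without CTRL replicate 3 or CML 2wk replicate 2) and 1 to 2 PP4 and PP6 genes higher (1 without CTRL replicate 2 or 3 or CML 2wk replicate 1 or 2). Replicate numbers did not pair the samples: same-numbered libraries had correlations of deviations from their group means between -0.125 and 0.0679. A replicate block called 4786 genes higher and 5189 lower, against 5637 and 5339, and under such a block, with sign flips of the 6 pairs, the Ppp2cb to Ppp2ca difference was unchanged at -0.25 with p = 0.0625 by exact permutation.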
